A study of Homo sapiens with 12 samples.

Results

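The comparison described here asks whether the response of prostate cancer cells to androgen depends on the siRNA they received. It is the interaction of an siRNA against ERRγ with the synthetic androgen R1881, computed for each gene as the R1881 response with siERRg minus the R1881 response with siCtl, and it uses all 12 of the 12 arrays of the series. LNCaP is an androgen-responsive human cell line, established from prostate cancer. All cells were kept in medium with 2% serum stripped of steroids, transfected, reseeded after 48 h and treated for 72 h. The 4 groups were siERRg with 10 nM R1881, siERRg with ethanol vehicle, siCtl with 10 nM R1881 and siCtl with ethanol vehicle, with 3 arrays each. Nothing in the labels says whether the triplicates were separate cultures, so each p-value rests on a spread among arrays that could be technical alone. An interaction of 0 means that R1881 moved a gene equally with both siRNAs, a positive value that the R1881 response was higher with siERRg, and a negative value that it was lower. Values are on the log2 scale and errors are standard errors unless stated.

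ERRγ, the product of ESRRG, is an orphan nuclear receptor that works without a known natural hormone. Together with coactivators of the PGC-1 family it binds an extended AGGTCA element and raises genes of mitochondrial respiration and oxidative metabolism. Androgens such as R1881, which also act through a nuclear receptor, raise secreted proteases, lipid synthesis genes and other genes of the luminal prostate cell, and lower a second set. The title of the series names an effect of androgen on ERRγ and on metabolism.

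No gene passed the test of the interaction. Of 17121 genes tested, 0 (0%) had an adjusted p under 0.05 (limma's moderated test with Benjamini-Hochberg adjustment, two-sided), and the lowest adjusted p was 0.0962. At an unadjusted p under 0.05 there were 1095 genes with a positive interaction (6.4% of those tested) and 795 with a negative one (4.64%). These shares are the background against which the counts for gene groups below are read. With the arrays scaled to a common median in place of quantile normalization, the counts were 1423 positive and 242 negative, and the median over all genes lay at 0.0419 in place of -0.0138. Interactions spread with an SD of 0.252 over genes. The 95% interval reached a median of 0.358 to each side, and for 16480 genes (96.3%) the whole interval lay within a 2-fold difference of the R1881 responses, that is within 1 on the log2 scale. It lay within 0.5 for 44.8%.

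The R1881 responses that enter the difference were broad and alike in size. With siERRg, R1881 raised 2849 genes (16.6%) and lowered 3495 (20.4%), and with siCtl it raised 3035 (17.7%) and lowered 3813 (22.3%). Across genes, which are not independent replicates, the 2 responses correlated with r = 0.895 and a rank correlation of 0.765, and they share no array. Their SD over genes was 0.543 with siERRg and 0.558 with siCtl. Among the 512 genes that R1881 raised by more than 1 with siCtl, 511 were also called higher with siERRg, with a median response of 1.34 with siERRg and 1.4 with siCtl. Among the 538 it lowered by more than 1 with siCtl, 497 were also called lower with siERRg, with medians of -1.24 with siERRg and -1.31 with siCtl. There were 16 genes called in opposite directions with the 2 siRNAs, and 4 of them are described below, PLA2G2D, SMCR5, NRDE2 and UQCC5. None of the 16 passed the test of the interaction itself.

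**Figure D1:**
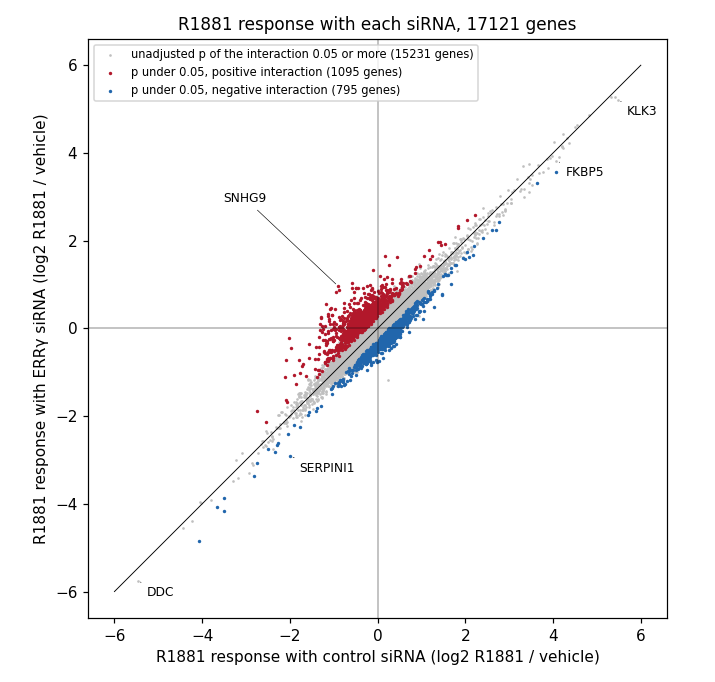
Each point is 1 of 17121 genes, with its R1881 response (log2 of R1881 over vehicle) with siCtl on the horizontal axis and with siERRg on the vertical axis; the line marks equal responses. Red and blue points have an unadjusted interaction p under 0.05, 1095 above and 795 below the line, none of them past the adjusted threshold, and strongly regulated genes such as KLK3, FKBP5 and DDC lie close to the line.

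The targeted gene could not be used to check the knockdown. All 3 probes for ESRRG were undetected on all 12 arrays. For the probe ILMN_1661994, which reached the highest value of them, the raw signal was 93.4, 91.8 and 91.9 in siERRg with R1881, 99.9, 87.9 and 90.9 in siERRg with vehicle, 92.8, 92.1 and 95.6 in siCtl with R1881 and 95.8, 94.6 and 95.9 in siCtl with vehicle. The values of siERRg with R1881 lay below those of siCtl with vehicle, the other groups overlapped, and the median raw signal of a whole array was 93.86 to 101.1. ESRRA, which encodes the related receptor ERRα, was detected on all 12 arrays and had an interaction of 0.0134 ± 0.12, with R1881 responses of 0.0842 with siERRg and 0.0707 with siCtl. ESRRB was detected on 1 array and was not tested. The 9 tested genes of the ERR family and its coregulators ran from -0.192 for the coactivator NCOA3 to 0.218 for the corepressor NCOR1, and 0 of the 9 reached an unadjusted p under 0.05 in either direction.

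Between 18695 and 20533 probes were detected on an array, and 18 of 22 luminal epithelial markers were detected on all 12, including KLK3, KRT8 and HOXB13. Of other lineages, 1 of 13 basal, 5 of 17 neuroendocrine, 7 of 18 stromal, 1 of 8 endothelial and 2 of 14 immune markers were detected on all 12. In bulk RNA, fewer cells of a type and less RNA per cell cannot be told apart.

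The genes with the lowest interaction p in the positive direction, among named genes detected on at least 2 arrays of each group, had in common a high level in siCtl with vehicle. SNORD13, a small nucleolar RNA that guides acetylation of ribosomal RNA, had the lowest p of all genes but did not meet that detection rule, since it was detected on 1 of 3 arrays of each R1881 group. Its log2 intensity was 4.35, 4.52 and 4.85 in siERRg with R1881, 4.68, 4.79 and 4.94 in siERRg with vehicle, 5.07, 4.32 and 4.36 in siCtl with R1881 and 6.6, 6.56 and 6.63 in siCtl with vehicle. The siCtl vehicle arrays stood above all 9 others, and the other groups overlapped. The interaction was 1.78 ± 0.25 (adjusted p = 0.0962), with R1881 responses of -0.23 with siERRg and -2.01 with siCtl. Most of its R1881 values thus lie at background level, and the sizes depend on how background is treated. In the authors' normalized table the same difference was 0.392, and it passed the adjusted threshold there and under 6 of the other 20 alternatives in which it could be computed.

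PLA2G2D, a secreted phospholipase A2, measured 5.53, 5.39 and 5.46 in siERRg with R1881, 4.98, 5.31 and 5.01 in siERRg with vehicle, 5.03, 5.07 and 5.08 in siCtl with R1881 and 5.65, 5.52 and 5.62 in siCtl with vehicle. With siERRg the R1881 arrays lay above the vehicle arrays, and with siCtl they lay below them. The responses were 0.362 with siERRg and -0.535 with siCtl, a difference of 0.898 ± 0.14 (adjusted p = 0.118). In the authors' normalized table this difference was 0.163.

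C21orf58 measured 8.94, 8.76 and 9.15 in siERRg with R1881, 8.99, 8.87 and 8.72 in siERRg with vehicle, 8.8, 8.65 and 8.59 in siCtl with R1881 and 9.48, 9.71 and 9.7 in siCtl with vehicle. Only the siCtl vehicle arrays stood apart from the rest. The interaction was 1.05 ± 0.16 (adjusted p = 0.118), and the 2 dimmer probes of the gene gave 0.365 and 0.545. In vehicle, C21orf58 was lower with siERRg than with siCtl by a called difference of -0.773, while the siRNA difference in R1881 was 0.274.

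SMCR5, a non-coding RNA, measured 5.88, 5.52 and 5.67 in siERRg with R1881, 5.45, 5.39 and 5.36 in siERRg with vehicle, 5.22, 5.47 and 5.38 in siCtl with R1881 and 5.83, 5.84 and 5.86 in siCtl with vehicle. CPNE7, a calcium-dependent membrane-binding protein of the copine family, measured 5.23, 5.33 and 5.28 in siERRg with R1881, 5.27, 5.24 and 5.03 in siERRg with vehicle, 4.87, 4.81 and 5.1 in siCtl with R1881 and 5.71, 5.4 and 5.69 in siCtl with vehicle. The pair shared low values in siCtl with R1881 and high values in siCtl with vehicle. Their interactions were 0.781 for SMCR5 and 0.77 for CPNE7, both with an adjusted p of 0.21, and a second probe for CPNE7 gave 0.16.

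INIP, a subunit of the SOSS complex that binds single-stranded DNA at breaks, measured 9.6, 9.3 and 9.63 in siERRg with R1881, 9.35, 9.47 and 9.31 in siERRg with vehicle, 9.54, 9.31 and 9.42 in siCtl with R1881 and 10.18, 9.89 and 10.1 in siCtl with vehicle. MCM8, a helicase of homologous recombination, measured 10.11, 10.05 and 10.38 in siERRg with R1881, 10.31, 10.04 and 10.08 in siERRg with vehicle, 10.01, 9.92 and 10.03 in siCtl with R1881 and 10.63, 10.69 and 10.63 in siCtl with vehicle. In both genes the siCtl vehicle arrays stood above the other 9. The interactions were 0.775 for INIP and 0.706 for MCM8, while a second, dimmer probe gave -0.11 for INIP and -0.106 for MCM8, so the probes of these genes disagreed.

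RNA5S9, a 5S ribosomal RNA whose many near-identical copies the probe may not tell apart, measured 6.65, 6.41 and 6.42 in siERRg with R1881, 6.18, 6.16 and 6.33 in siERRg with vehicle, 6.91, 6.53 and 6.63 in siCtl with R1881 and 7.19, 7.14 and 7.52 in siCtl with vehicle. ITPK1-AS1, an antisense RNA, measured 10.38, 10.21 and 10.47 in siERRg with R1881, 10.15, 10.09 and 10.1 in siERRg with vehicle, 10.16, 10.22 and 9.98 in siCtl with R1881 and 10.54, 10.48 and 10.52 in siCtl with vehicle. Both were lower with siERRg than with siCtl in vehicle on every array, a difference that passed the adjusted threshold for RNA5S9 (-1.06) and not for ITPK1-AS1 (-0.397). Their interactions were 0.861 for RNA5S9 and 0.631 for ITPK1-AS1.

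The remaining 4 of the 12 positive genes were TRIM13, RPS28, LFNG and HDHD5-AS1. TRIM13, a ubiquitin ligase of the endoplasmic reticulum, had an interaction of 0.669, and its 3 other probes gave 0.0163 to 0.302. RPS28, a small ribosomal protein with processed copies elsewhere in the genome, had 1.41 ± 0.3, with R1881 responses of 0.445 with siERRg and -0.963 with siCtl. LFNG, a glycosyltransferase that modifies Notch receptors, was lower after R1881 with both siRNAs, with means of 5.362 in siERRg with R1881 and 6.085 in siERRg with vehicle, against 5.23 in siCtl with R1881 and 7.022 in siCtl with vehicle, an interaction of 1.07 ± 0.22. HDHD5-AS1 had 0.983. Over the 12 genes, siCtl with vehicle stood above all other arrays in 10, the vehicle groups did not overlap in 12, and the R1881 groups did not overlap in 5. Over all genes tested these shares were 4.59%, 22.3% and 10.8%. The 12 were chosen by the interaction that such patterns make up, so the counts only describe them.

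In the negative direction, SERPINI1, which encodes the serine protease inhibitor neuroserpin, had the lowest p. Its values were 4.85, 4.7 and 4.76 in siERRg with R1881, 7.8, 7.57 and 7.7 in siERRg with vehicle, 4.89, 5.25 and 5.34 in siCtl with R1881 and 7.41, 6.96 and 7.09 in siCtl with vehicle. R1881 lowered SERPINI1 with both siRNAs, with responses of -2.92 with siERRg and -1.99 with siCtl, and no group overlapped another. The interaction was -0.926 ± 0.19 (adjusted p = 0.21), -0.423 by a dimmer probe, and in the authors' normalized table it was -0.311.

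ALAS1, the first enzyme of heme synthesis, measured 5.83, 5.98 and 6.1 in siERRg with R1881, 5.84, 5.78 and 5.64 in siERRg with vehicle, 6.67, 6.5 and 6.67 in siCtl with R1881 and 5.81, 5.58 and 5.34 in siCtl with vehicle. Here the siCtl R1881 arrays stood above the other 9. The responses of ALAS1 to R1881 were 0.219 with siERRg and 1.03 with siCtl, an interaction of -0.816 ± 0.17 (adjusted p = 0.21), with -0.22 in the authors' normalized table and -0.188 by a dimmer probe.

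OAT, the mitochondrial ornithine aminotransferase, measured 6.63, 6.87 and 6.65 in siERRg with R1881, 6.07, 5.73 and 5.97 in siERRg with vehicle, 6.92, 7.14 and 6.85 in siCtl with R1881 and 5.5, 5.53 and 5.5 in siCtl with vehicle. TMEM64 measured 5.8, 5.98 and 5.86 in siERRg with R1881, 5.68, 5.78 and 5.89 in siERRg with vehicle, 5.88, 5.96 and 5.97 in siCtl with R1881 and 5.34, 5.18 and 5.25 in siCtl with vehicle. Both were lowest in siCtl with vehicle. The interactions were -0.674 for OAT and -0.58 for TMEM64, against -0.26 and -0.0255 by a second probe of each gene, and TMEM64 was called higher with siERRg in vehicle, by 0.526.

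RAD54B, a motor protein of recombination repair, measured 6.17, 6.27 and 6.13 in siERRg with R1881, 5.53, 5.77 and 5.82 in siERRg with vehicle, 6.35, 6.66 and 6.25 in siCtl with R1881 and 5.37, 5.11 and 4.91 in siCtl with vehicle. SHLD2, a subunit of the shieldin complex at DNA breaks, measured 6.55, 6.83 and 6.79 in siERRg with R1881, 6.51, 6.39 and 6.36 in siERRg with vehicle, 6.88, 6.78 and 6.87 in siCtl with R1881 and 6.09, 5.95 and 5.82 in siCtl with vehicle. For both, the siCtl vehicle arrays lay below the other 9. The responses were 0.486 with siERRg and 1.29 with siCtl for RAD54B, and 0.301 with siERRg and 0.889 with siCtl for SHLD2.

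SHQ1, an assembly factor of H/ACA ribonucleoproteins, measured 6.18, 6.25 and 6.27 in siERRg with R1881, 6.32, 6.23 and 6.06 in siERRg with vehicle, 6.42, 6.45 and 6.69 in siCtl with R1881 and 5.97, 5.88 and 5.71 in siCtl with vehicle. DGKH, a diacylglycerol kinase, measured 4.71, 4.87 and 4.44 in siERRg with R1881, 5.47, 5.7 and 5.69 in siERRg with vehicle, 4.76, 5.06 and 4.97 in siCtl with R1881 and 5.14, 5.07 and 5.33 in siCtl with vehicle. In SHQ1 the siCtl groups were the extremes, and in DGKH the siERRg vehicle arrays stood above the rest. The interactions were -0.639 for SHQ1 and -0.695 for DGKH.

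The other 4 of the 12 negative genes were FAM216A (-0.566), the centriole protein CPAP (-0.548), the transcription factor MYC (-0.473 ± 0.12) and the calcineurin subunit PPP3R1 (-0.747). MYC averaged 10.21 in siERRg with R1881 and 10.56 in siERRg with vehicle, against 10.46 in siCtl with R1881 and 10.33 in siCtl with vehicle. Its R1881 response was -0.345 with siERRg and 0.128 with siCtl, and a dimmer MYC probe gave an interaction of -0.212. Across the 12 genes, chosen in the same way, siCtl with vehicle lay below all other arrays in 7. The vehicle groups did not overlap in 11 and the R1881 groups did not overlap in 6. The shares of all genes tested with these patterns were 3.91%, 22.3% and 10.8%. In the authors' normalized table, interactions were 0.133 to 1.51 for the 12 positive genes and -0.456 to -0.0936 for the 12 negative ones, and they were smaller by over 1.5 times in 7 of the positive and 10 of the negative genes. The sign stayed as given for all 24 in every alternative that tested them. Each alternative used the same arrays by which the 24 were chosen, so this is no separate support for the signs.

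**Figure D2:**
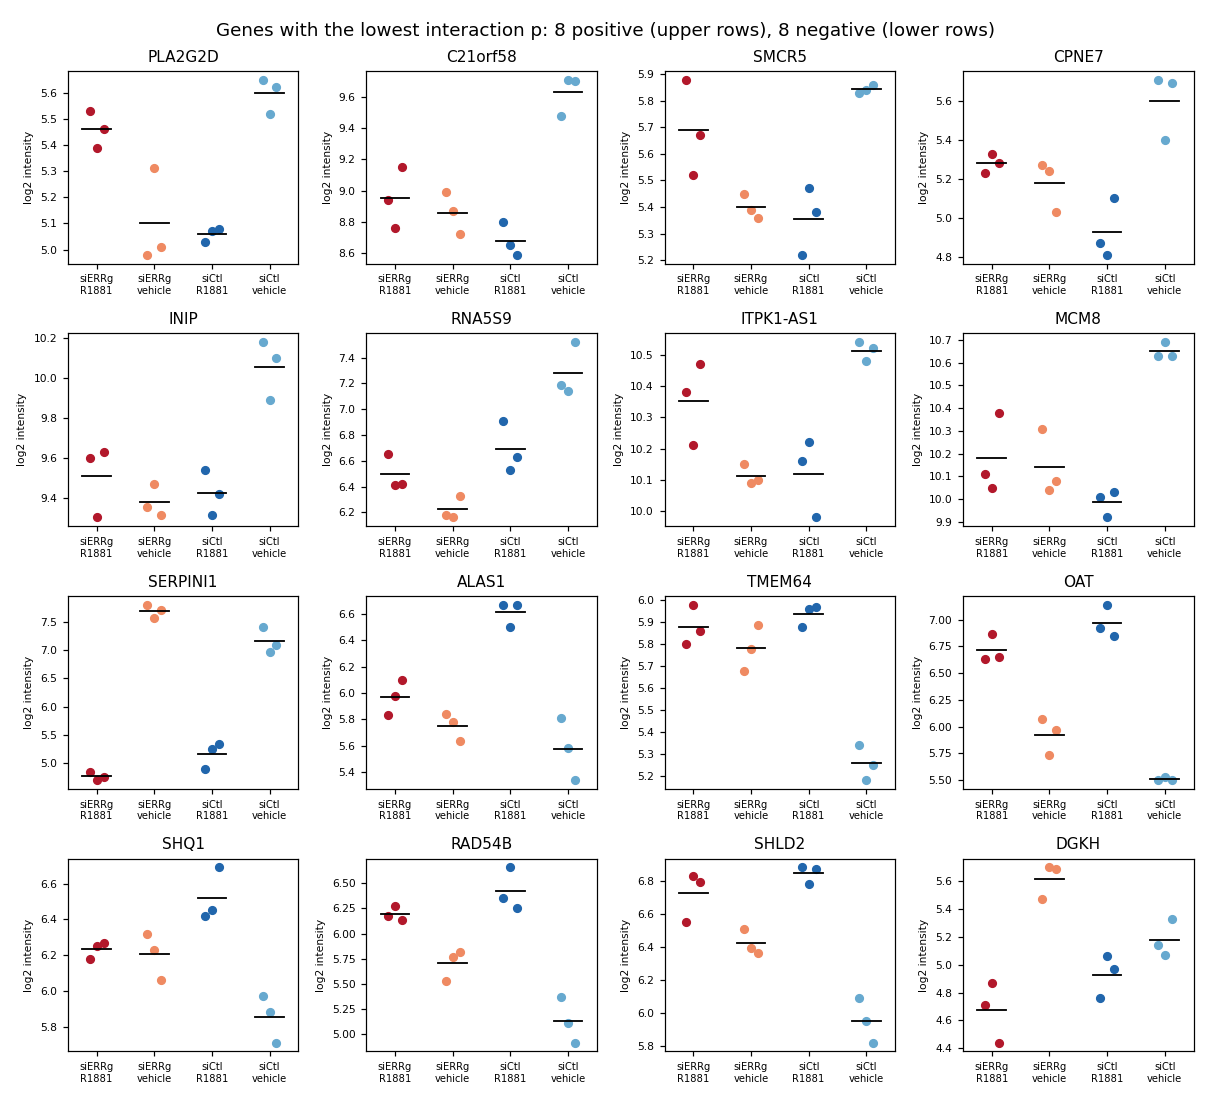
Log2 intensity on each of the 12 arrays for the 8 genes with the lowest interaction p in each direction; points are arrays in the order of replicate number, bars are means of 3, and each panel has its own scale that does not start at 0. In INIP and MCM8 the siCtl vehicle arrays stand above the other 9, and in TMEM64 and SHLD2 they lie below.

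Of the 1095 genes with a positive interaction at an unadjusted p under 0.05, the siRNA difference was larger in vehicle than in R1881 for 862 (78.7%), with medians of 0.166 in R1881 and -0.358 in vehicle. Of the 795 negative genes it was larger in vehicle for 507 (63.8%), with medians of -0.157 in R1881 and 0.239 in vehicle. Over all genes tested this share was 59.1%. These genes were chosen by the interaction, which is the difference of the 2 siRNA effects, so the medians are a description.

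Tested by itself, the siRNA effect passed the threshold for no gene in R1881 (0 of 17121, 0%), where 1049 genes had an unadjusted p under 0.05. In vehicle it passed for 3 genes that were higher (0.0175%) and 42 that were lower with siERRg (0.245%). The 42 had a median siRNA effect of 0.0254 in R1881 and -0.757 in vehicle, and in R1881 18 of them lay below 0 and 24 above it. In R1881, 3 of the 42 were lower at an unadjusted p under 0.05, as were 3.19% of all genes tested. Across all genes the siRNA effects in R1881 and in vehicle, which share no array, correlated with r = -0.0544. A call in vehicle and none in R1881 does not show a difference between them, and the interaction that tests this difference passed for none of the 42. The count of 45 calls moved with single arrays. Without siERRg vehicle replicate 1, 2 or 3 it was 5, 83 or 3, without siCtl R1881 replicate 1, 2 or 3 it was 192, 123 or 28, and without siCtl vehicle replicate 1, 2 or 3 it was 2, 4 or 1.

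Among named genes detected on at least 2 arrays of each group, the largest positive interactions at an unadjusted p under 0.01 were those of SNHG9 (1.87 ± 0.49), NRDE2 (1.77 ± 0.42), UQCC5 (1.74 ± 0.45), SNORA57 (1.56 ± 0.41), NDUFA3 (1.51 ± 0.41) and CNFN (1.51 ± 0.45). SNHG9 is a small nucleolar RNA host gene, NRDE2 a factor of nuclear RNA decay, and UQCC5 an assembly factor of respiratory complex III. In the authors' normalized table NRDE2 had 0.544, SNORA57 0.555 and CNFN 0.847. These genes spread widely among replicates. SNHG9 measured 10.07, 9.48 and 9.54 in siERRg with R1881, 8.35, 9.21 and 8.64 in siERRg with vehicle, 10.7, 8.99 and 9.24 in siCtl with R1881 and 10.44, 10.63 and 10.57 in siCtl with vehicle. UQCC5 measured 9.47, 8.97 and 9.17 in siERRg with R1881, 7.85, 8.97 and 8.18 in siERRg with vehicle, 9.66, 8.19 and 8.68 in siCtl with R1881 and 9.56, 9.78 and 9.79 in siCtl with vehicle. In both, replicate 1 of siCtl with R1881 was as high as the siCtl vehicle arrays or nearly so, while replicates 2 and 3 were lower.

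This array bears on the whole test. Without replicate 1 of siCtl with R1881, 175 of 17121 genes passed the adjusted threshold in the interaction, 164 positive and 11 negative. With all 12 arrays 0 passed. The 175 included 10 of the 24 genes with the lowest p, which were chosen on these same arrays, so this count only describes them. NDUFA3, ATP5ME, MRPL41, UGT2B11 and CDK4 were also among the 175. By the lists described below, 3 of 35 complex I genes, 2 of 40 of complexes II to V and 2 of 25 androgen-repressed entries were called. For androgen-induced genes it was 0 of 51, and for ERR and PGC-1 targets 0 of 43. Of 195 small non-coding RNAs, a list made after the values were seen, 12 were called. Without replicate 2 of siERRg with vehicle, 1 gene passed, PLA2G2D. Leaving out any of the other 10 arrays left 0 calls, and the counts at an unadjusted p under 0.05 were 840 to 1389 positive and 566 to 1077 negative over the 12 omissions. Without replicate 2 of siCtl with R1881 the lowest adjusted p of the interaction was 0.372. Within siCtl with R1881, the mean correlation with the other 2 arrays was 0.9915 for replicate 1, 0.9915 for replicate 2 and 0.993 for replicate 3. By this measure replicate 1 was no further from its group than replicate 2. The part of replicate 1 in the result was not otherwise tested.

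**Figure D3:**
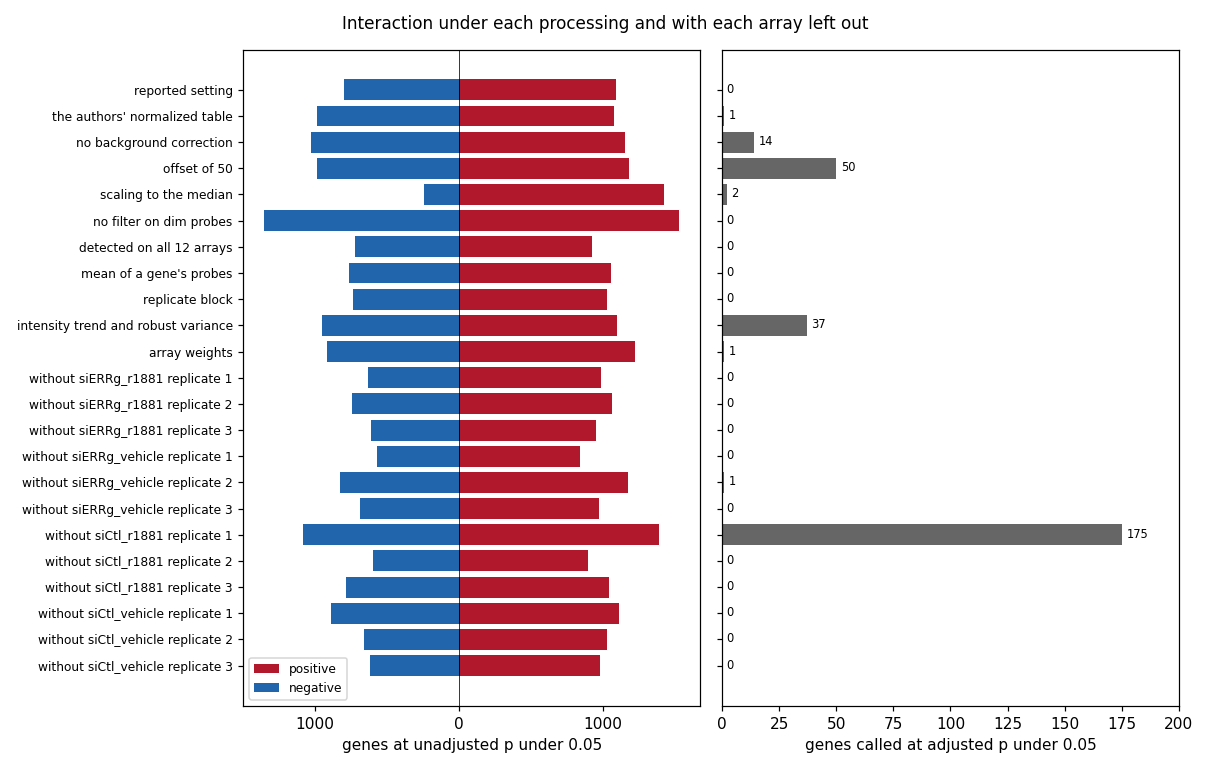
Number of genes at an unadjusted interaction p under 0.05 (left, negative to the left of 0 and positive to the right) and number called at an adjusted p under 0.05 (right), for the reported setting, 10 other settings of the processing or model, and each array left out in turn. Only the omission of siCtl R1881 replicate 1 gives over 100 calls, namely 175.

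Respiratory complex I takes electrons from NADH into the respiratory chain and is built of catalytic core subunits and a larger number of accessory ones. Its genes had the highest median interaction of the lists with at least 15 tested members, 0.287 over 35 genes, against -0.0138 over all genes tested. At an unadjusted p under 0.05, 15 of the 35 were positive (42.9%) and 2 negative (5.71%), and 0 passed the adjusted threshold. The list's median R1881 response was 0.245 with siERRg and -0.0604 with siCtl, and its median siRNA effect was 0.108 in R1881 and -0.174 in vehicle. NDUFA3, an accessory subunit, measured 11.38, 10.95 and 11.14 in siERRg with R1881, 10.26, 11.25 and 10.66 in siERRg with vehicle, 11.6, 10.19 and 10.64 in siCtl with R1881 and 11.83, 11.91 and 11.93 in siCtl with vehicle. NDUFA1, another accessory subunit, measured 12.08, 11.82 and 12.02 in siERRg with R1881, 11.23, 11.73 and 11.46 in siERRg with vehicle, 11.95, 11.27 and 11.62 in siCtl with R1881 and 11.9, 11.96 and 11.84 in siCtl with vehicle. In both genes the replicates of siERRg with vehicle and of siCtl with R1881 spread widely, while those of siCtl with vehicle lay close together. The interactions were 1.51 ± 0.41 for NDUFA3 (adjusted p = 0.252) and 0.788 for NDUFA1.

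The complex I genes did not move as a block. Among the 28 accessory subunits, 14 were positive and 1 negative at an unadjusted p under 0.05, with a median of 0.372. Among the 7 core subunits the counts were 1 and 1, with a median of 0.0536. This split was made after the values were seen. The accessory subunit NDUFB5 had -0.438.

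Complexes II to V, which pass the electrons on to oxygen and make ATP, had a median of 0.102 over 40 genes, with 11 positive (27.5%) and 4 negative (10%) at an unadjusted p under 0.05. ATP5ME, a small subunit of the ATP synthase, measured 12.45, 12.11 and 12.17 in siERRg with R1881, 10.92, 11.84 and 11.2 in siERRg with vehicle, 12.56, 11.5 and 11.67 in siCtl with R1881 and 12.35, 12.38 and 12.35 in siCtl with vehicle. Its interaction was 1.38 ± 0.35, and a second probe gave 1.51. COX8A, a subunit of cytochrome c oxidase, had 0.666. In the other direction stood ATP5PB of the ATP synthase stalk (-0.494) and COX7A2L, which joins respiratory complexes into larger assemblies (-0.413).

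These counts rested on few arrays. Averaged over the 35 complex I genes, the deviation from each gene's overall mean was 0.0733, 0.0403 and 0.0861 in siERRg with R1881, -0.258, 0.00443 and -0.154 in siERRg with vehicle, 0.143, -0.206 and 0.00113 in siCtl with R1881 and 0.0896, 0.0912 and 0.0892 in siCtl with vehicle. The siCtl R1881 replicates spanned a wider range than separates any 2 group means. The lowest 2 arrays were siERRg vehicle replicate 1 and siCtl R1881 replicate 2. Over all genes tested they were also lowest, at -18.98 and -16.23, on the second principal component. This direction of second widest spread among arrays held 7.18% of the variance. SNHG9, NRDE2, SNORA57 and CNFN, which are not respiratory genes, had the replicates of siERRg with vehicle and of siCtl with R1881 in the same order. The cause was not tested. The count of 15 positive complex I genes became 8 without siERRg vehicle replicate 1 and 8 without siCtl R1881 replicate 2. The count of 11 for complexes II to V became 5 without either of these arrays and 6 without siERRg R1881 replicate 1. Over all omissions of single arrays the 15 ran from 8 to 20 and the 11 from 5 to 16. The 1095 positive genes among all tested became 840 without siERRg vehicle replicate 1 and 898 without siCtl R1881 replicate 2. Ribosomal genes had RPS21 of the small cytosolic subunit at 1.01 and MRPL41 and MRPL54 of the mitochondrial ribosome at 0.883 and 0.699. Of 75 mitochondrial ribosome genes 9 were positive (12%) and 1 negative (1.33%), with a median of -0.0139, and of 75 cytosolic ribosome genes 9 were positive (12%) and 6 negative (8%), with a median of 0.0243. The 9 mitochondrial ones became 4 without siERRg vehicle replicate 1, 16 without siCtl R1881 replicate 1 and 5 without siCtl R1881 replicate 2. The 9 cytosolic ones became 4 without siCtl R1881 replicate 2, and 5 without siERRg vehicle replicate 1 or 3 or siCtl vehicle replicate 3. RNA quality was not measured in the files, and its part in these values was not tested.

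**Figure D4:**
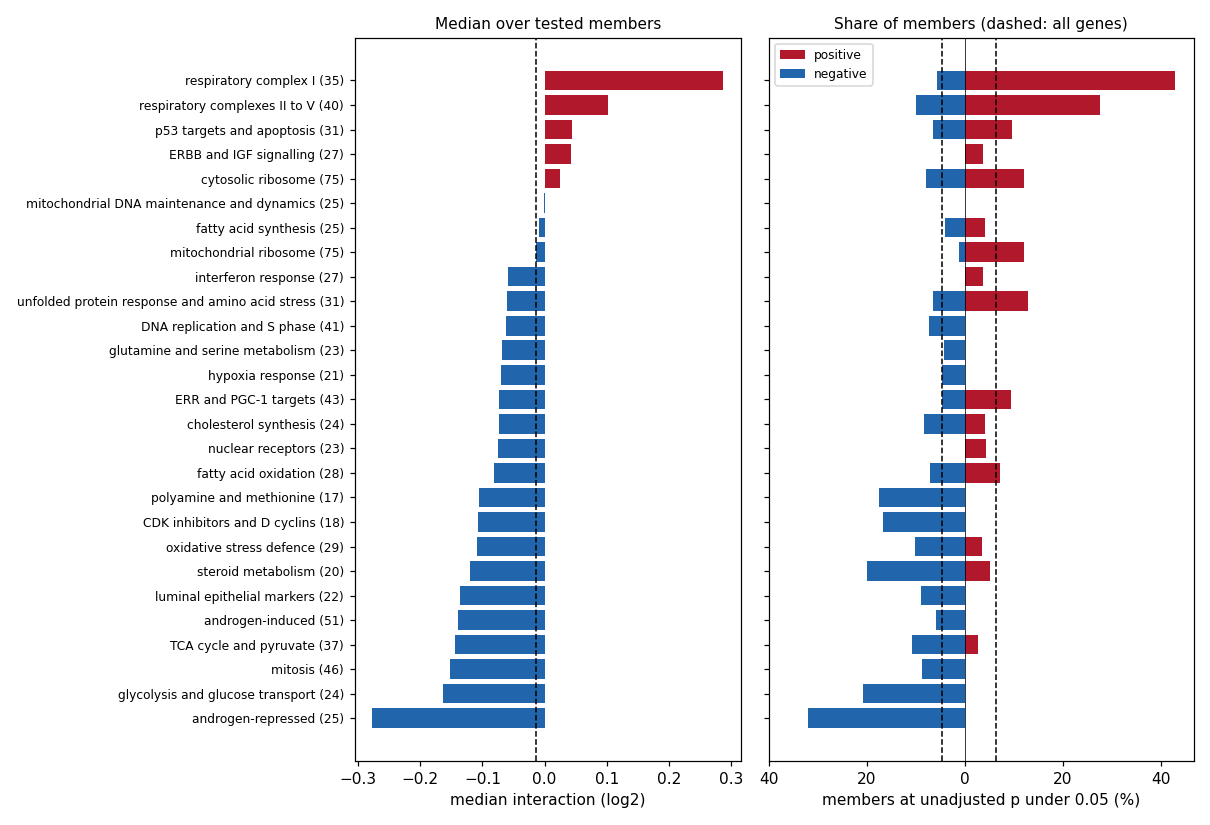
Left, the median interaction (log2) of each gene list with at least 15 tested members (number in brackets), with the median of all genes as a dashed line. Right, the share of members in percent at an unadjusted p under 0.05, negative to the left and positive to the right, with the shares of all genes dashed (4.64% and 6.4%); complex I has the highest median at 0.287 and the androgen-repressed list the lowest at -0.277.

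**Figure D5:**
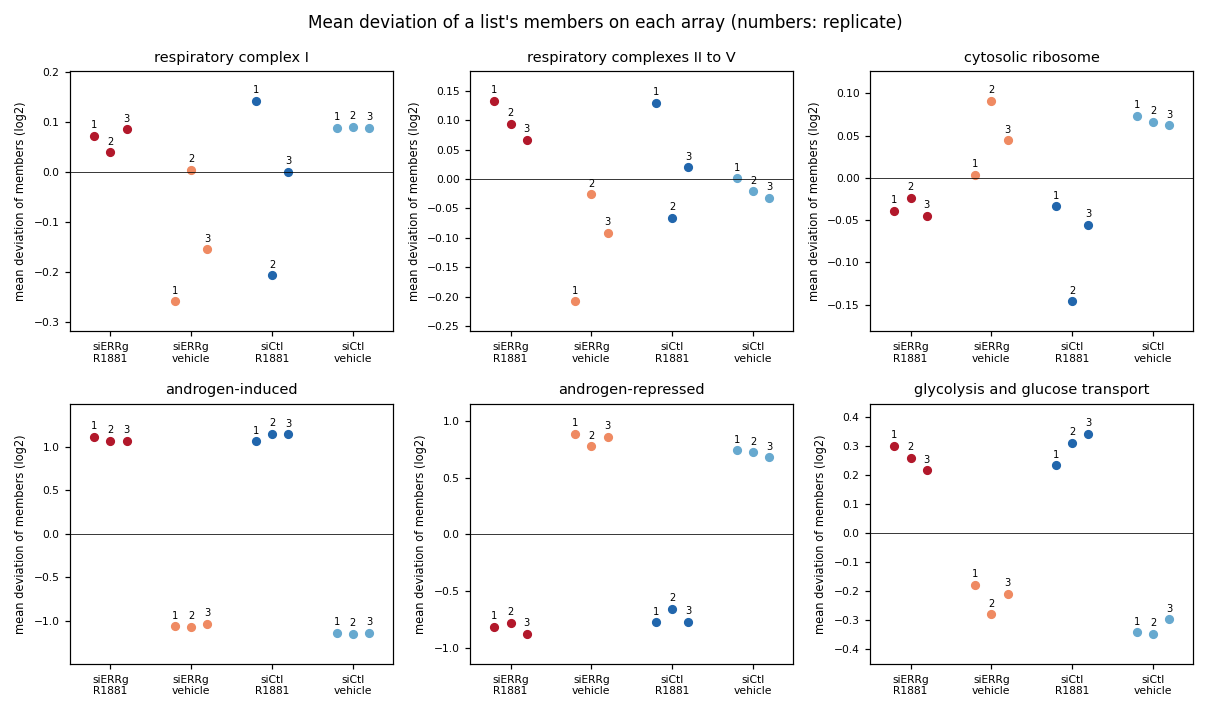
Mean deviation (log2) of the members of 6 lists from each gene's mean over all arrays, 1 point per array with its replicate number. The complex I points of siCtl with R1881 run from -0.206 to 0.143, while the androgen lists separate R1881 from vehicle with both siRNAs.

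Genes known as targets of ERRs and PGC-1 coactivators did not share a direction. Over 43 tested members the median interaction was -0.0733, with 4 positive (9.3%) and 2 negative (4.65%) at an unadjusted p under 0.05, shares close to those of all genes. The 4 became 0 without siERRg vehicle replicate 1, 1 without siCtl R1881 replicate 2 or siCtl vehicle replicate 3, and 2 without siERRg R1881 replicate 3 or siERRg vehicle replicate 3, and the 2 ran from 0 to 4 over the omissions. The positive members with the lowest p were respiratory subunits, COX7A2 (0.417) and NDUFB7 (0.649), and the negative ones were the ADP/ATP carriers SLC25A4 (-0.3) and SLC25A5 (-0.259). The R1881 response of SLC25A4 was -0.0182 with siERRg and 0.282 with siCtl, and a second, dimmer probe gave an interaction of -0.0824. The median R1881 response of the list was 0.0892 with siERRg and 0.137 with siCtl.

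Promoters were searched for the ERR element TCAAGGTCA and for its core AAGGTCA on both strands, the core being contained in the element, because these are the letters an ERR would be sought by. RefSeq promoters (GRCh38.p14, from 250 bases before to 50 after the start) were given for 14 of the 24 genes with the lowest p, as 18 windows. None of the 18 held either motif or the palindromic androgen response element, where 3.92% of all 35116 promoters held the core, 0.353% the element and 0.00285% the androgen element. In the lists, chosen for this search after the values were seen, 2 of 35 windows of complex I genes (5.71%), 6 of 38 of complexes II to V (15.8%) and 4 of 49 of the ERR and PGC-1 targets (8.16%) held the core. Stretches of 3 of these windows are shown because they carry a match beside respiratory genes of differing interaction, on build GRCh38.p14 and in the gene's own direction, with the match in capitals.
NDUFB4 (chr3:120596237-120596363, plus strand): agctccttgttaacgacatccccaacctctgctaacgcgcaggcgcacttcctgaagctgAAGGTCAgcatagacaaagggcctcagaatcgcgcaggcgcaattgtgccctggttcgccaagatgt
COX7A2 (chr6:75243905-75244031, minus strand): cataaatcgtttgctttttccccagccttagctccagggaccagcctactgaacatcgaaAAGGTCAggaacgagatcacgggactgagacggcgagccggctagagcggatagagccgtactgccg
SDHD (chr11:112086824-112086922, plus strand): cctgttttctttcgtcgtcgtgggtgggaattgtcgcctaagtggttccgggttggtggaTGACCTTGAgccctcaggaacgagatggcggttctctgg
The capitals in SDHD, a membrane anchor of complex II, are the ERR element read on the opposite strand. The interaction was 0.882 for NDUFB4, a complex I accessory subunit, 0.417 for COX7A2 and -0.529 for SDHD. The 3 were chosen for their differing interactions, so the signs follow from the choice and are no result. A match is a description of the letters in the window and not a site of binding.

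The lists of the TCA cycle and of fatty acid oxidation had medians below 0. Over 37 genes of the TCA cycle and pyruvate entry the median was -0.144, with 1 positive (2.7%) and 4 negative (10.8%) at an unadjusted p under 0.05. Among them, OGDH of the oxoglutarate dehydrogenase had 0.485, a value from its brightest probe only (the others gave -0.0736 and -0.0716), and PDHX of the pyruvate dehydrogenase had -0.393. The 4 negative genes ran from 2 to 7 over the omissions of single arrays and from 0 to 9 over all alternatives. The median of this list ran from -0.183 to 0.00736 over all alternatives. Over 28 genes of fatty acid oxidation the median was -0.0809, with 2 positive and 2 negative (7.14% each). This median ran from -0.142 to 0.0434 over all alternatives, so its sign was not stable. CROT, which moves medium chains out of peroxisomes, responded to R1881 by 1.65 with siERRg and 1.25 with siCtl, and the mitochondrial carnitine carrier SLC25A20 by 0.837 with siERRg and 1.15 with siCtl. For SLC25A20 the interaction was -0.315, and -0.0252 by a second, dimmer probe.

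Glycolysis and glucose transport had a median interaction of -0.164 over 24 genes, with 0 positive (0%) and 5 negative (20.8%) at an unadjusted p under 0.05. The median R1881 response of the list was 0.37 with siERRg and 0.58 with siCtl. TPI1, which interconverts the triose phosphates, measured 12.4, 12.42 and 12.28 in siERRg with R1881, 12.36, 12.16 and 12.25 in siERRg with vehicle, 12.41, 12.84 and 12.57 in siCtl with R1881 and 11.96, 11.99 and 12.02 in siCtl with vehicle. PGAM1, a phosphoglycerate mutase, measured 11.04, 11.2 and 10.99 in siERRg with R1881, 10.66, 10.5 and 10.41 in siERRg with vehicle, 11.16, 11.42 and 11.25 in siCtl with R1881 and 10.31, 10.36 and 10.16 in siCtl with vehicle. For both, the siCtl vehicle arrays were the lowest 3 of the 12. The interactions were -0.503 ± 0.15 for TPI1 (adjusted p = 0.274) and -0.45 ± 0.15 for PGAM1 (adjusted p = 0.295). With the arrays scaled to a common median, 0 of the 24 remained under 0.05 and the median was -0.075. Under this setting the median over all genes was 0.0419 in place of -0.0138, and 242 of 17121 genes were negative in place of 795. Without siERRg vehicle replicate 1 or siCtl R1881 replicate 2 the count was 3.

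GLUL, the glutamine synthetase, had -0.578 by its brighter probe and 0.266 by the other, and 0 of 23 genes of glutamine and serine metabolism were positive and 1 negative (4.35%) at an unadjusted p under 0.05. Fatty acid synthesis had a median interaction of -0.00927 over 25 genes and cholesterol synthesis one of -0.0738 over 24. Their median R1881 responses were 0.62 with siERRg and 0.603 with siCtl for fatty acid synthesis, and 1.11 with siERRg and 1.23 with siCtl for cholesterol synthesis.

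The median R1881 response of classical androgen-induced genes was 1.97 with siERRg and 1.98 with siCtl over 51 genes. Of these 41 had a negative interaction and 10 a positive one, as against 8998 negative of 17121 genes tested. At an unadjusted p under 0.05, 0 were positive (0%) and 3 negative (5.88%). The median interaction was -0.14, which need not equal the difference of the 2 median responses. Over all alternatives this median ran from -0.163 to -0.0518 and the count of 3 from 1 to 8. KLK3, which encodes prostate-specific antigen, measured 10.98, 10.93 and 11 in siERRg with R1881, 6.01, 5.45 and 5.84 in siERRg with vehicle, 10.89, 11.24 and 10.98 in siCtl with R1881 and 5.76, 5.45 and 5.48 in siCtl with vehicle. R1881 raised KLK3 by 5.2 with siERRg and 5.48 with siCtl, an interaction of -0.273 ± 0.2 whose 95% interval reached 0.426 to each side. FKBP5, a cochaperone of steroid receptors, rose by 3.82 with siERRg and 4.08 with siCtl (-0.26 ± 0.13). The protease TMPRSS2 had -0.143 and the glycine methyltransferase GNMT had -0.145. KLK2 was not well above background on any vehicle array with siERRg or with siCtl and gets no interaction value. The members with the lowest p were OTULINL (-0.406) and the potassium channel KCNN2 (-0.312).

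The androgen-repressed list had the lowest median of the lists with at least 15 tested members, -0.277 over 25 entries. At an unadjusted p under 0.05, 0 were positive (0%) and 8 negative (32%), and the median R1881 response was -1.39 with siERRg and -1.62 with siCtl. These 2 medians differ in the direction opposite to the median interaction, since a median of differences need not be the difference of medians. The list's mean deviation was -0.813, -0.782 and -0.879 in siERRg with R1881 and 0.89, 0.778 and 0.864 in siERRg with vehicle. With siCtl it was -0.777, -0.658 and -0.77 in R1881 and 0.741, 0.725 and 0.682 in vehicle, a smaller fall. Of the 25 entries 21 were detected on at least 2 arrays of each group. Of the 8 negative ones, PLA2G2A and CCN3 were detected on none of the R1881 arrays, so their interaction is not a measured difference. The member with the lowest p was SERPINI1, described above. Next came UGT2B11, a glucuronosyltransferase of the family that inactivates androgens, which R1881 raised in these cells, by 0.765 with siERRg and 1.47 with siCtl. UGT2B11 measured 10.1, 10.42 and 10.53 in siERRg with R1881, 9.61, 9.46 and 9.69 in siERRg with vehicle, 10.31, 10.83 and 10.65 in siCtl with R1881 and 9.11, 9.15 and 9.11 in siCtl with vehicle. Its relative UGT2B7 had -0.586, and probes for these near-identical genes may not tell them apart. DDC, the aromatic amino acid decarboxylase, fell by 5.75 with siERRg and by 5.47 with siCtl, an interaction of -0.281. The list's median was -0.145 in the authors' normalized table and -0.149 with scaling to a common median, where 3 members were negative and 1 positive. The median over all genes was -0.00374 in that table and 0.0419 with scaling. The count of 8 became 5 without siERRg R1881 replicate 3 or siERRg vehicle replicate 1.

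Mitosis genes had a median interaction of -0.153 over 46, with 0 positive (0%) and 4 negative (8.7%) at an unadjusted p under 0.05, and a median R1881 response of 0.555 with siERRg and 0.71 with siCtl. CDK1, the kinase that starts mitosis, measured 9.41, 9.71 and 9.52 in siERRg with R1881, 9.17, 8.87 and 9.08 in siERRg with vehicle, 9.5, 9.8 and 9.41 in siCtl with R1881 and 8.84, 8.46 and 8.33 in siCtl with vehicle. The R1881 groups overlapped and the vehicle groups did not. The interaction was -0.524 for CDK1 and -0.381 for the topoisomerase TOP2A. The count of 4 was 0 with scaling to a common median, where the negative genes among all tested were 242 in place of 795. It ran from 0 (without siERRg R1881 replicate 1) to 12 (without siCtl vehicle replicate 1) over the omissions of single arrays. CDK4, the kinase of the G1 phase, had -0.5 ± 0.15 and the retinoblastoma relative RBL1 had -0.585, or -0.084 in the authors' normalized table. Of 47 named genes outside the 24 with the lowest p, 17 were smaller in that table by over 1.5 times and 47 had the same sign.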

How the data were processed

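RNA from 12 LNCaP samples in 4 groups of 3 was measured on expression bead arrays. The authors deposited raw probe intensity without background subtraction, with a detection p-value for each probe and array, and a table of normalized log2 values whose method is not given in the sources used here. From the deposited intensity, 92 control probes were left out of 47323, the background was corrected by normexp with detection p-values (offset 16), and arrays were quantile normalized and taken to log2 with limma 3.58.1 in R 4.3.3. Probes with a detection p-value under 0.05 on at least 3 of the 12 arrays were kept (21959), and the brightest probe stood for a gene, giving 17121 genes. Names came through RefSeq accessions for 28588 probes, current symbols for 2514 and the table's own name for 16221. Group means were fitted to all 12 arrays with empirical Bayes moderation and Benjamini-Hochberg adjustment over 17121 genes, called at an adjusted p under 0.05. Precision is limited by the 3 arrays per group. On simulated data with known changes, the mean estimates of the fit lay near the values set. The simulated noise was independent between genes and had the same spread in every group. In these arrays the spread of some genes differed widely between groups, so the simulation checks the computation and not the calls. Genes named are, among named genes detected on at least 2 arrays of each group, the 12 with the lowest p in each direction, those with the largest values at p under 0.01, and members of the gene lists. The comparison and lists were chosen with earlier results of these data known. SNORD13, the list of small non-coding RNAs, the 16 genes of opposite response, the core and accessory split of complex I and the promoter lists were picked after their values were seen. Some genes of the lists are not reported here. Alternatives covered the authors' table, background, offset, scaling, probe filter and summary, replicate block, variance model, array weights and each array left out.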

Additional observations from a re-analysis of the deposited data

How the results depend on the processing

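The interaction had 0 calls with no filter on dim probes, with probes detected on all 12 arrays, with the mean of a gene's probes and with the replicate number as a block, 1 in the authors' normalized table, 14 without background correction, 50 with an offset of 50, 2 with scaling to the median, 37 with an intensity trend and robust variance, 1 with array weights, and 0 to 175 with single arrays left out. The count of 45 calls of the siRNA effect in vehicle was 179 in the authors' table, 482 without background correction, 441 with an offset of 50, 111 with scaling, 26 with no filter, 105 with probes detected on all 12 arrays, 6 with the replicate block, 299 with trend and robust variance, 236 with array weights and 1 to 192 with single arrays left out. The cause was not tested. Replicate numbers gave no clear pairing over the 4 groups: 18 correlations of deviations ran from -0.258 to 0.127, with 1 over 0.1, and 7 of 18 were best with their own number. Between siERRg with R1881 and siCtl with R1881 they were 0.0942, 0.127 and 0.0184, each the highest for its siERRg replicate. These low values do not decide whether samples were paired there. With the replicate block the lowest adjusted p of the interaction was 0.287. ESRRA turned to -0.0176 with array weights and ran from -0.0322 to 0.0505 with single arrays left out. The other named genes for which the alternatives were run, NDUFB4 not among them, kept their sign, though every alternative used these same arrays. Scaling moved the median of complex I to 0.468, of complexes II to V to 0.288 and of all genes from -0.0138 to 0.0419. Alternatives for the list counts were chosen after seeing the data.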
